A study of Mus musculus with 8 samples.

Results

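The 10 genes described here mark mural cells, the smooth muscle cells and pericytes that wrap blood vessels: Acta2, Myh11, Tagln, Cnn1, Mylk, Des and Lmod1 of the contractile apparatus, and Rgs5, Notch3 and Cspg4 of pericytes. They were taken by symbol, and all 10 were found among the 23212 genes of the count tables and among the 14493 genes with enough counts to test. Whole perigonadal fat was taken from 8 separate C57BL/6 mice, age- and weight-matched: 4 were wild type, and 4 carried a gene knockout specific to adipocytes. All mice were 20 weeks old and had eaten a 45% fat diet for 12 weeks from 8 weeks of age. Mural cells were not the stated target of the deletion, and the promoter that drives it is not given in the sources used here.

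Vascular smooth muscle cells contract when calcium and calmodulin activate myosin light chain kinase, which lets smooth muscle myosin pull on actin filaments. Serum response factor and its partner myocardin switch on many genes of this apparatus by binding CArG boxes in their promoters. Pericytes sit on capillaries inside the basement membrane, where they are recruited by endothelial platelet-derived growth factor B and kept by Notch signalling. In fat they support the capillary bed and lie beside adipocyte progenitors.

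On mm10, in the deposited annotation, the contractile genes are spread over several chromosomes. Acta2 is at chr19:34241091-34255336, Tagln at chr9:45929628-45936058, Cnn1 at chr9:22099253-22109221, Myh11 at chr16:14194527-14291408, Mylk at chr16:34784950-35002434, Des at chr1:75360344-75367715 and Lmod1 at chr1:135324813-135368065. The pericyte gene Rgs5 is at chr1:169655501-169693526, Notch3 at chr17:32120893-32166852 and Cspg4 at chr9:56865104-56899870. The values below count reads over all annotated exons of each gene.

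The libraries held 46444435 to 51431956 counts each, and the genotypes overlapped in depth (two-sided exact permutation test over 70 arrangements, p = 0.171). Levels are given as CPM, gene counts scaled to a common library size after TMM scaling. Whole tissue was sequenced, so fewer cells of a type and less RNA per cell cannot be told apart. Genes of other cell types differed in level between libraries of the same genotype. Wild-type library 3 and knockout library 2 held genes of ciliated and other epithelium, with Foxj1 at 7.97 and 26.1 CPM against at most 0.287 CPM in the others. The summed level of 7 mesothelial genes was 746, 1110.3, 299.9 and 220.0 CPM in wild-type mice 1 to 4 and 1003, 199, 135 and 468 CPM in knockout mice 1 to 4. The 10 endothelial genes, from the cells that mural cells wrap, summed to 906 to 1357 CPM in wild type and 884 to 1395 CPM in knockout (exact permutation p = 0.8, adjusted p = 0.914 over 7 marker lists). No difference between genotypes was detected in any of the 7 marker lists of other cell types, the smallest exact permutation p being 0.114 (adjusted p = 0.8), for skeletal muscle genes. With 4 libraries per genotype, only a list whose genotypes separated completely could reach a p under 0.05 in this test. After adjustment over 7 lists a single such list would still not pass, so equal cell content cannot be read from these values. Of the skeletal muscle genes, Myod1 had 0 counts in all libraries, and 7 of 10 skeletal muscle genes stayed below 1 CPM in each library.

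The promoter of Acta2, which encodes smooth muscle alpha-actin, is shown because this gene had the largest difference of the list. The promoter of Myl9, the regulatory light chain that the kinase Mylk phosphorylates, is shown beside it because Myl9 followed the mean profile of the list most closely among other contractile genes. Both are from RefSeq on GRCm38.p6 and end at the base before the RefSeq start, which for Acta2 is not the start in the deposited annotation. Capitals mark CArG boxes with at most 1 base of the core other than A or T.
Acta2 (chr19:34255374-34255523, minus strand): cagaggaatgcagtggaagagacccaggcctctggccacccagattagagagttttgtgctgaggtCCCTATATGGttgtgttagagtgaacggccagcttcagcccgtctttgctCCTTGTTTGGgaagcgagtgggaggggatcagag
Myl9 (chr2:156775293-156775463, plus strand): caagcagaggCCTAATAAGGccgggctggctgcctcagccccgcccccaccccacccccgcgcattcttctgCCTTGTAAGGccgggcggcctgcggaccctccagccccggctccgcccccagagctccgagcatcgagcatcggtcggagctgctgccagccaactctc
The Acta2 boxes begin 84 and 34 bases before the RefSeq start, and those of Myl9 161 and 99 bases before it. Of 8 members with a promoter in the RefSeq table, 1 held such a box within 250 bases, against 8 of 24 other smooth muscle genes and 8.59% of 32851 promoters. The members Myh11 and Tagln had no promoter there, and bases farther out were not searched. Genes were counted if any of their promoters held a box, while the 8.59% is of single promoters, so these shares are not strictly alike. The search reads both strands, since the box is its own reverse complement, and the boxes shown do not overlap. A match is a match of letters and was not tested as a binding site.

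Among the contractile members, Acta2 was the most abundant. Its level was 117 ± 92.8 CPM per kilobase of exon (SD, n = 8), above 95.9% of tested genes. Tagln, which encodes the actin-binding protein transgelin, followed at 43.5 ± 10.6 per kilobase, and each of the 8 libraries had Acta2 above Tagln and Tagln above Rgs5. Then came Rgs5 at 19.6 ± 10.2, Mylk at 16.3 ± 5.39 and the intermediate filament gene Des at 12.6 ± 1.35 per kilobase. Rgs5 and Mylk could not be ranked, since Rgs5 was above Mylk in 5 of 8 libraries. Mylk was above Des in 7 of 8 libraries, and Des above Cspg4 in all 8. Lower levels were seen for Cspg4 at 5.74 ± 1.29, smooth muscle myosin heavy chain Myh11 at 4.48 ± 2.19, Notch3 at 3.76 ± 1.93, calponin Cnn1 at 1.81 ± 1.47 and leiomodin Lmod1 at 1.20 ± 0.723 per kilobase. Within these last 5 no neighbours were separated, the order holding in 5 or 6 of 8 libraries for each of the 4 pairs. The counts of the members could rarely belong to a relative: 0.352% of the 50-base words of the Acta2 transcript and 0.4% of those of Myh11 occurred in transcripts of other genes. Tagln shares 5.99% of its exonic bases with Pcsk7 and Mylk 4.26% with E130310I04Rik, both on the opposite strand, so a small part of their reads is uncertain.

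None of the 10 genes passed an adjusted p of 0.05 in edgeR's quasi-likelihood test, where 0.0138% of all tested genes were called lower in knockout and 0.0% higher. Without adjustment, 154 genes had a p under 0.05 with a lower level and 169 with a higher one, and DESeq2 called 9 and 8, none of them a member. In the list, 9 of 10 log2 fold changes were below 0, against 46.9% of all tested genes, with a median of -0.47 against 0.011. All 7 contractile genes were below 0 (median -0.54), while the 3 pericyte genes Rgs5, Notch3 and Cspg4 were at -0.45, -0.06 and 0.31. An unadjusted p under 0.05 with a lower level was found for 2 members, Acta2 and Mylk, and for 1.06% of tested genes. Knockout libraries all lay below wild-type libraries for 1 member, Acta2, and for 0.821% of tested genes. Without wild-type library 3 and knockout library 2, the count below 0 was 8 of 10.

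**Figure D1:**
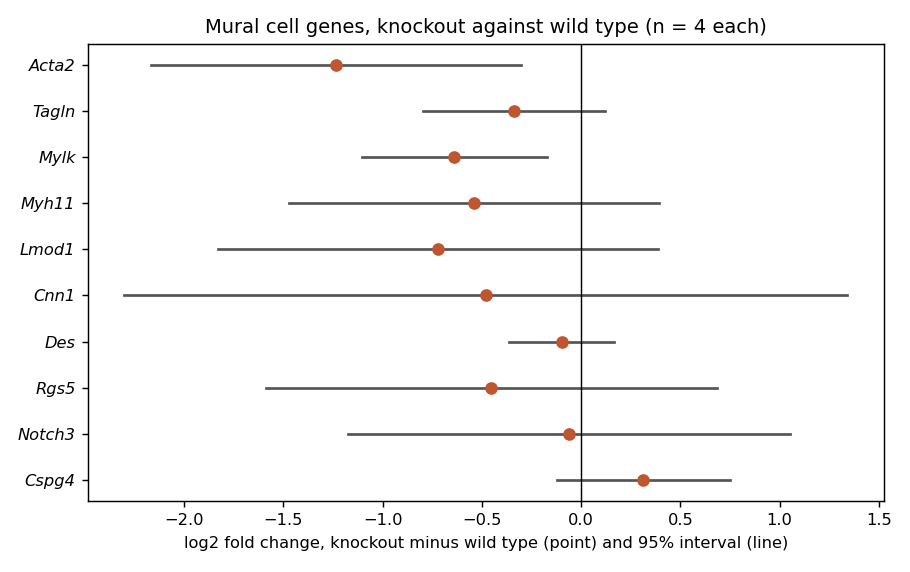
Log2 fold change of each mural gene, knockout minus wild type, from edgeR (point), with its 95% interval (line). The intervals of Acta2 and Mylk lie below 0, and the other 8 include 0.

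Acta2 was at 183, 605, 228 and 149.8 CPM in wild-type mice 1 to 4 and at 132, 121, 107 and 135 CPM in knockout mice 1 to 4. The genotypes did not overlap (mean 291 ± 212 against 124 ± 12.5 CPM, SD, n = 4 each), and wild-type library 2 stood far above the other 7. The log2 fold change was -1.23 (standard error, SE, 0.41; 95% interval -2.17 to -0.30; edgeR adjusted p = 1). Without wild-type library 2 it was -0.59, still with an adjusted p of 1. Wild-type library 2 was also high in Acta1, the skeletal muscle actin gene, at 78.9 CPM against 30.6 to 36.5 CPM in wild types 1, 3 and 4. It was not high in Myh11: the ratio of Acta2 to Myh11 CPM was 25.9 there, 2.84 to 11.1 among the remaining wild types and 3.33 to 8.19 in knockout.

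Mylk, the kinase that starts contraction, was at 96.4, 175, 200.5 and 149 CPM in wild-type mice 1 to 4 and at 99.7, 110.1, 85.8 and 103 CPM in knockout mice 1 to 4. Wild-type library 1 lay among the knockout libraries, and the other 3 wild-type libraries lay above all of them. The difference was -0.64 on the log2 scale (SE 0.21, 95% interval -1.11 to -0.17, edgeR adjusted p = 1). It ranged from -0.81 to -0.49 over all settings examined. Tagln was at 50.3, 77.1, 94.7 and 86.3 CPM in wild type and 65.5, 72.9, 48.2 and 57.4 CPM in knockout. Its wild-type libraries 2 to 4 were above all knockout libraries and its wild-type library 1 was below 3 of them (log2 fold change -0.34, SE 0.20, 95% interval -0.80 to 0.12; -0.22 without wild-type library 3).

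**Figure D2:**
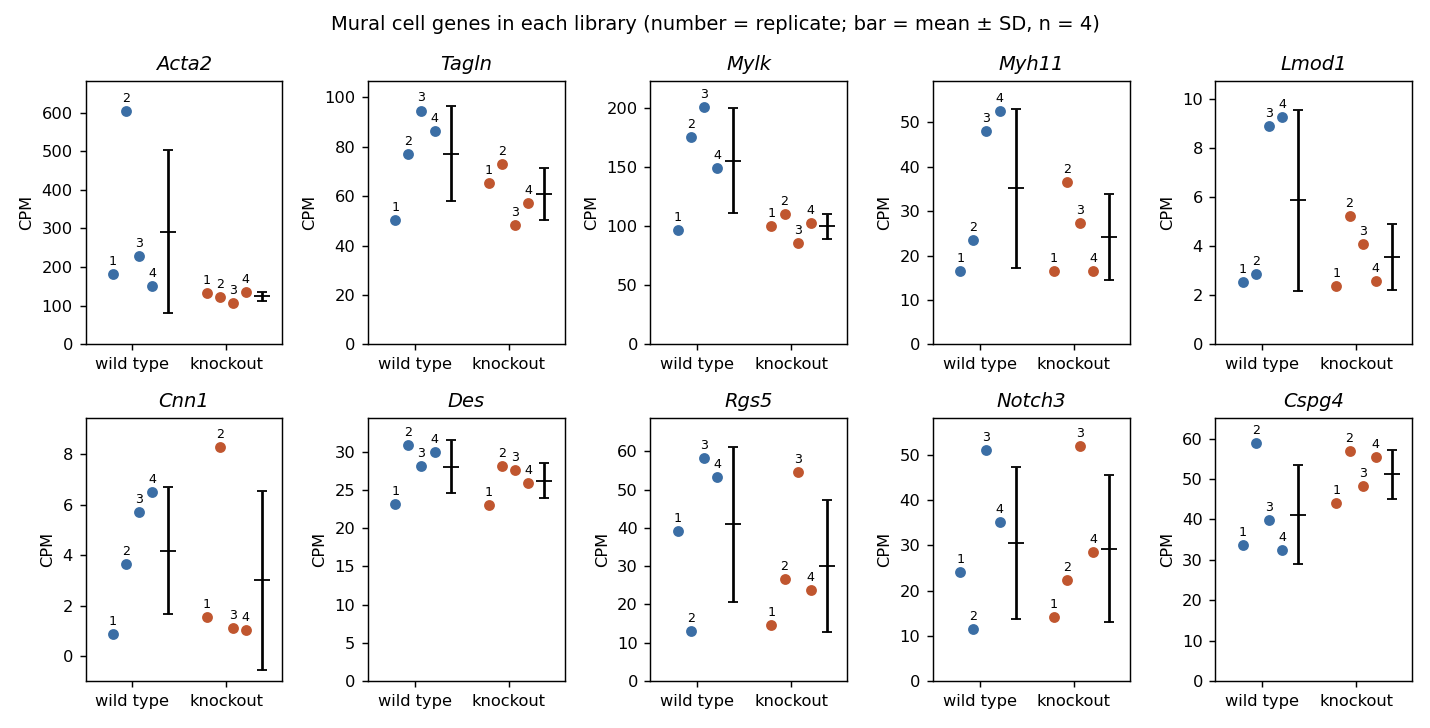
CPM of each mural gene in each library, with the replicate number beside each point and the mean ± SD (n = 4) as a black bar. Acta2 in wild-type library 2 stands at 605 CPM, and the knockout libraries of Acta2 and Mylk lie close together.

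Myh11, Lmod1 and Cnn1 belong to fully differentiated, contracting smooth muscle: the myosin motor, a nucleator of actin filaments and an actin-bound brake on the motor. Myh11 was at 16.5, 23.4, 48.0 and 52.7 CPM in wild-type mice 1 to 4 and at 16.4, 36.5, 27.4 and 16.5 CPM in knockout mice 1 to 4. Lmod1 was at 2.52, 2.84, 8.86 and 9.24 CPM in wild type and 2.37, 5.23, 4.06 and 2.56 CPM in knockout. In both genes wild-type libraries 3 and 4 were high and wild-type libraries 1 and 2 were within the knockout range. The log2 fold changes were -0.54 for Myh11 (SE 0.41) and -0.72 for Lmod1 (SE 0.49), with intervals that include 0. Without wild-type library 4 they were -0.28 and -0.42, without wild-type library 3 -0.35 and -0.45, and without knockout library 2 -0.81 and -0.98. Cnn1 was at 0.887, 3.65, 5.71 and 6.51 CPM in wild type and 1.54, 8.31, 1.12 and 1.04 CPM in knockout. Knockout library 2, the one with the most epithelial RNA, was the highest of all 8 for Cnn1. The log2 fold change of Cnn1 was -0.48 (SE 0.80) with all libraries and -1.77 without knockout library 2 (edgeR adjusted p = 1 in both). Leaving out any other library than wild-type library 2 also moved it by over 1.5 times, to between -0.82 (without wild-type library 1) and -0.18 (without wild-type library 4). Des, which ties the contractile units together, was flat at 23.1 to 31.0 CPM over all 8 libraries, with a log2 fold change of -0.10 (SE 0.12, 95% interval -0.36 to 0.17). It lay between -0.18 (without wild-type library 1) and -0.04 (without knockout library 1) with each library left out.

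Rgs5, a brake on G protein signalling and the classic pericyte transcript, was at 39.1, 12.98, 58.3 and 53.3 CPM in wild-type mice 1 to 4 and at 14.7, 26.6, 54.6 and 23.8 CPM in knockout mice 1 to 4. Notch3, the Notch receptor of mural cells, was at 24.0, 11.6, 51.1 and 35.2 CPM in wild type and 14.1, 22.3, 51.9 and 28.6 CPM in knockout. For both, wild-type library 3 and knockout library 3 were high and wild-type library 2 and knockout library 1 were low, so that each genotype covered nearly the whole range. The log2 fold change of Rgs5 was -0.45 (SE 0.50, 95% interval -1.59 to 0.68) and that of Notch3 -0.06 (SE 0.49, 95% interval -1.17 to 1.05). Rgs5 moved to -0.92 without knockout library 3 and -0.75 without wild-type library 2, and to -0.23 without wild-type library 3, -0.30 without wild-type library 4 and -0.23 without knockout library 1. Without wild-type library 3 the value of Notch3 was 0.31, and without knockout library 3 it was -0.49. Cspg4, which encodes the surface proteoglycan NG2, went the other way. It was at 33.6, 58.8, 39.9 and 32.4 CPM in wild type and 44.0, 57.0, 48.3 and 55.4 CPM in knockout, with 3 wild-type libraries below all 4 knockout libraries and wild-type library 2 above them. Its log2 fold change was 0.31 (SE 0.19, 95% interval -0.12 to 0.75), and 0.53 without wild-type library 2 (edgeR adjusted p = 1 in both).

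**Figure D3:**
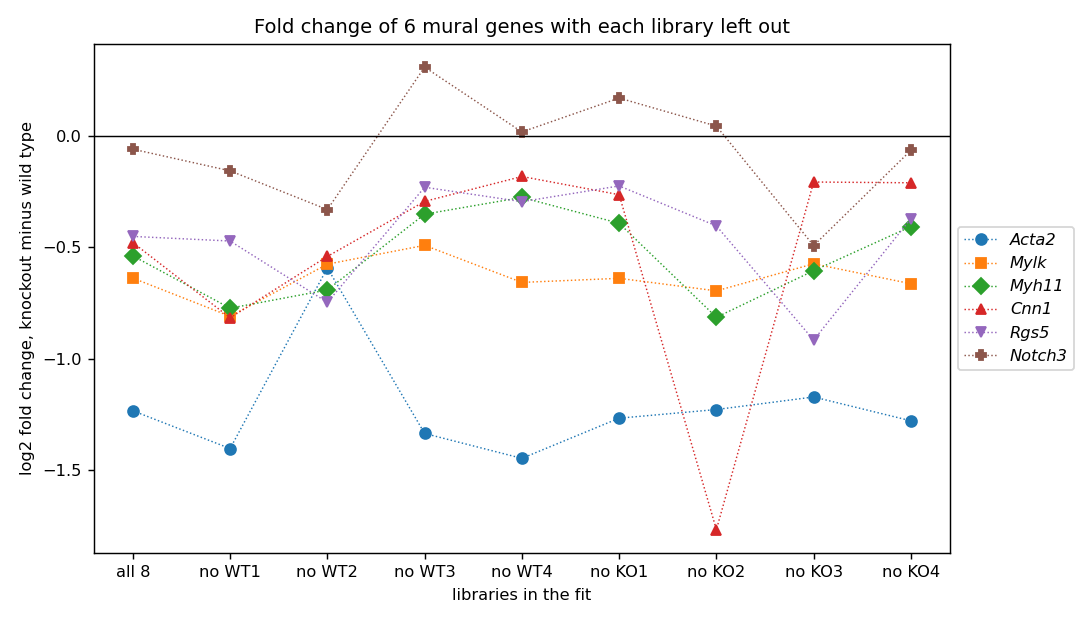
Log2 fold change (knockout minus wild type) of 6 mural genes with all 8 libraries and with each library left out (WT wild type, KO knockout); dotted lines only join the points of a gene. Acta2 moves to -0.59 without wild-type library 2, Cnn1 to -1.77 without knockout library 2, and Notch3 lies on both sides of 0.

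On the log2 scale the median SD of the members was 0.851 in wild type and 0.397 in knockout, against medians of 0.223 and 0.248 over all tested genes. Not every member lay above those medians: Des was below them in both genotypes, at 0.187 and 0.130. In knockout Acta2 (0.149), Mylk (0.152) and Cspg4 (0.175) were below too. The SD was larger in wild type than in knockout for 9 of 10 members, all but Cnn1, and for 41.6% of tested genes. The related lists did not share this: it held for 12 of 27 other smooth muscle genes and 11 of 20 other pericyte genes. Median SDs in wild type and knockout were 0.275 and 0.389 for the former, and 0.592 and 0.612 for the latter. Mesothelial genes (1.12 and 1.29) and macrophage genes (0.900 and 0.927) also had high median SDs. For Acta2 the highest wild-type library was 4.04 times the lowest, and the highest knockout library 1.26 times the lowest. For Mylk these ratios were 2.08 and 1.28, and for Rgs5 4.50 and 3.72. The members share their libraries, so these are not independent observations, and the difference in spread was not tested.

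Rgs5 and Notch3 followed each other closely over the 8 libraries once each genotype's mean was taken off (Pearson r = 0.96, Spearman rho = 0.93, n = 8, and r = 0.92 without the 2 libraries farthest from the median). Myh11 and Lmod1 did so too (r = 0.98, rho = 0.90, and 0.96 without 2 libraries). Acta2 ran against Rgs5 (r = -0.80) and Notch3 (r = -0.66), and with Cspg4 (r = 0.90). Without the 2 libraries farthest from the median of Acta2, these were -0.54, -0.31 and 0.52, so they rest in part on those libraries, wild-type 2 and 4. Acta2 had an r of -0.34 with Myh11, -0.49 with Lmod1, 0.03 with Cnn1 and 0.14 with Tagln. With the contractile members Des and Mylk it was 0.32 and 0.44. Without the same 2 libraries, these contractile values lay between 0.19 and 0.67. Of 27 other smooth muscle genes, 0 had r above 0.8 with Acta2 (median 0.02), against 2.33% of all tested genes. The 7 mesothelial genes had a median r of 0.57 with Acta2, the 20 other pericyte genes -0.55 and the 10 endothelial genes -0.60. Wild-type library 2, the highest in Acta2, also had the highest mesothelial sum, at 1110 CPM. The part of tissue mixture in the Acta2 profile was not tested. Cspg4 did not follow the pericyte genes Rgs5 (r = -0.57, and -0.04 without 2 libraries) and Notch3 (r = -0.43, and 0.25 without 2 libraries). Over all 45 pairs of members the median r was 0.48, with 33 pairs above 0. These correlations describe 8 libraries and have no p. The profiles of Rgs5 with Notch3 and of Myh11, Cnn1 and Lmod1 were chosen after their values were seen.

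Many other pericyte genes had the Rgs5 and Notch3 profile. Of 20 listed, 11 had r above 0.8 with the mean of those 2 genes, against 3.55% of all tested genes. They include Pdgfrb, the receptor that recruits pericytes (r = 0.90), Kcnj8 and Abcc9, subunits of the vascular potassium channel that senses ATP (0.88 and 0.99), the matrix protein gene Vtn (0.98) and Heyl, a target of Notch3 (0.98). Abcc9 was at 25.1, 11.1, 45.6 and 37.4 CPM in wild-type mice 1 to 4 and at 11.02, 19.8, 51.0 and 19.7 CPM in knockout mice 1 to 4. As in Rgs5, wild-type library 2 and knockout library 1 were low and knockout library 3 was among the high ones. The profile was not particular to pericyte genes. The 10 endothelial genes had a median r of 0.71 with it, and 2 of them were above 0.8, the angiopoietin receptor Tek (0.83) and its relative Tie1 (0.82). The 14 Notch genes had a median r of 0.63, and 3 were above 0.8: the ligands Dll4 (0.93) and Jag2 (0.83) and the endothelial receptor Notch4 (0.82). Not every listed pericyte gene followed the profile: r was -0.52 for Tbx18, -0.25 for Gucy1a3 and -0.17 for Anpep. Ano1, a calcium-activated chloride channel, ran the opposite way (r = -0.94). The 7 mesothelial genes also did, with a median r of -0.86, and wild-type library 2 and knockout library 1 were the 2 libraries with the highest mesothelial sums. The part of tissue mixture in the pericyte profile was not tested.

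**Figure D4:**
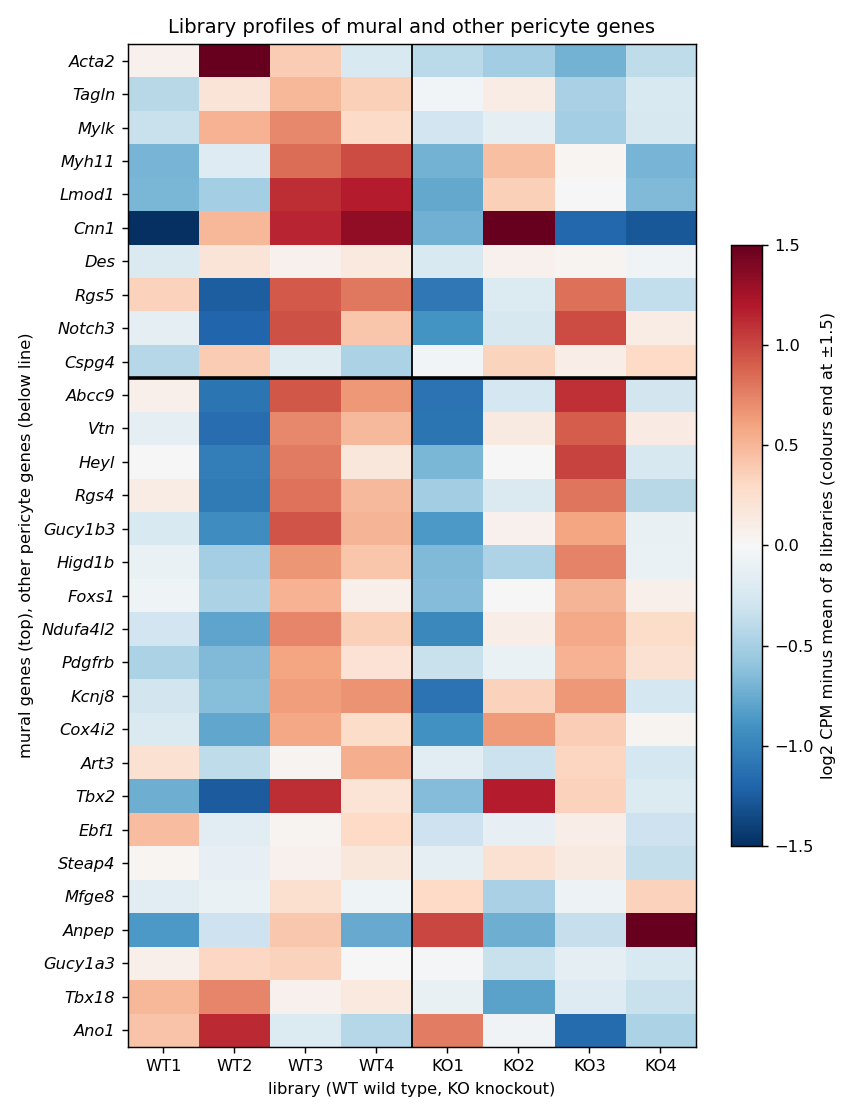
Log2 CPM of each gene minus its mean over the 8 libraries, for the 10 mural genes (above the line) and the 20 other pericyte genes (below it, ordered by r with Rgs5 and Notch3). Wild-type library 2 and knockout library 1 are low, and wild-type library 3 and knockout library 3 high, in Rgs5, Notch3 and the upper pericyte genes.

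The Myh11, Cnn1 and Lmod1 profile was shared by 8 of 27 other smooth muscle genes at r above 0.8, against 3.00% of all tested genes. The median r of those 27 genes was -0.21, so the list did not follow the profile as a whole. Among them were the light chain gene Myl9 (r = 0.94), smooth muscle gamma-actin Actg2 (0.90), the calcium-activated potassium channel subunit Kcnmb1 (0.91), Pcp4l1 (0.96), Itga8 (0.96) and Jph2 (0.95). The 7 mesothelial genes had a median r of -0.67 with this profile, the 20 other pericyte genes 0.37 and the 10 endothelial genes 0.12. Actg2, the actin of visceral smooth muscle, was at 0.371, 2.14, 3.31 and 5.03 CPM in wild type and 0.792, 8.01, 0.358 and 0.327 CPM in knockout. Kcnmb1 was at 0.0619, 0.333, 0.916 and 0.503 CPM in wild type and 0.139, 3.21, 0.316 and 0.0614 CPM in knockout. Outside knockout library 2 it was at most 0.916 CPM. Without knockout library 2 and wild-type library 4, the r of Pcp4l1 with the profile was 0.92. For Actg2 and Kcnmb1 it was not computed without them. Knockout library 2 was the highest of all 8 for Actg2, Kcnmb1, Pcp4l1 and Cnn1, and it also had the highest Foxj1 and Epcam, at 26.1 and 19.6 CPM. Whether this smooth muscle RNA came with the epithelium was not tested.

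As groups, the related lists had no gene past the threshold in either direction with edgeR, DESeq2 or limma voom, and 5 genes at an unadjusted p under 0.05, all lower, where 1.06% of all tested genes had such a p with a lower level. Of 27 other smooth muscle genes 21 were below 0 (median log2 fold change -0.19), and of 20 other pericyte genes 13 (median -0.11). Over all tested genes 46.9% were below 0, the share to set beside these and the list counts that follow. Genes of a list share their libraries, so such counts are not independent observations, and they were not tested. The pericyte count rested on single libraries: it was 7 of 20 without wild-type library 3 and 18 of 20 without wild-type library 2. Csrp1, a LIM protein of smooth muscle, was at 229 to 239 CPM in wild type and 179 to 224 CPM in knockout, with groups that did not overlap (difference -0.26 on the log2 scale, SE 0.10). Mcam, the adhesion protein CD146 of mural and endothelial cells, was at 835 to 920.1 and 690.4 to 799.8 CPM (-0.23, SE 0.11). Gucy1a3, a subunit of the guanylate cyclase through which nitric oxide relaxes vessels, was at 22.8 to 29.1 and 18.1 to 22.5 CPM (-0.37, SE 0.12). Tbx18, a transcription factor of mural cells, was at 3.76 to 6.00 and 2.04 to 3.32 CPM (-0.73, SE 0.23). None of these 4 passed over all genes, and each was chosen by its small p within its list, so that separation follows in part from the choice. Knockout libraries all lay below wild-type libraries for 0.821% of all tested genes. Anpep, at 21.6 to 51.9 CPM in wild type and 23.6 to 119 CPM in knockout, was the largest positive value among the other pericyte genes (0.98, SE 0.52). It was highest in knockout libraries 1 and 4, the libraries with the highest summed level of 10 macrophage genes. These sums were 1636 and 2745 CPM, against 493 to 1472 CPM in the others. Among knockouts, libraries 1 and 4 were also highest in the fibroblast sum (4542 and 2919 CPM) and the mesothelial sum (1003 and 468 CPM). The cause of the Anpep values was not tested.

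Of the regulators of contractile genes, 7 of 11 tested were below 0 and none passed. Srf, the factor that binds CArG boxes, was at 44.4, 69.2, 44.8 and 51.2 CPM in wild type and 36.6, 54.8, 41.1 and 43.8 CPM in knockout, a difference of -0.25 (SE 0.17) on the log2 scale. Its highest library was wild-type library 2, as for Acta2, but its next highest was knockout library 2, where Acta2 ranked 7 of 8. A link between Srf and Acta2 was not tested. Myocd, which encodes myocardin, was too low to test, at 0.429 CPM or less. Among genes that control contraction, 13 of 15 were below 0 (median -0.16), against 46.9% of all tested genes. Rock2, a kinase that keeps the myosin light chain phosphorylated, was at 263 to 349.9 CPM in wild type and 232 to 269 CPM in knockout (-0.36, SE 0.12), while the GTPase Rhoa that activates it was at 171 to 187 and 167 to 190.2 CPM.

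None of the listed Notch, platelet-derived growth factor and transforming growth factor beta genes passed the threshold. In the Notch list 8 of 14 were below 0 (median -0.03), and 4 without wild-type library 3 or 5 without knockout library 2. The ligand Jag1, which endothelium presents to Notch3, was at 53.3 to 66.8 CPM in wild type and 53.1 to 81.0 CPM in knockout, and Dll4 at 31.1 to 50.3 and 29.2 to 41.6 CPM. Of 6 genes of the platelet-derived growth factor system 2 were below 0, and 1 without knockout library 2. Pdgfb was at 32.3 to 57.6 CPM in wild type and 35.8 to 76.8 CPM in knockout, and its receptor Pdgfrb at 35.0 to 83.7 and 44.0 to 79.9 CPM. Pdgfc, a ligand of the related receptor Pdgfra, was at 33.4 to 35.5 and 26.8 to 30.9 CPM, without overlap (-0.23, SE 0.08, edgeR adjusted p = 1). It was the 1 gene of these 6 with knockout libraries all below wild-type libraries, against 0.821% of all tested genes. In the transforming growth factor beta list 8 of 13 were below 0 (median -0.03) and 5 without wild-type library 4, with Tgfb1 at 36.0 to 54.7 and 43.8 to 66.4 CPM.

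Genes outside the list were ranked by their likeness to the mean profile of the 10 members over the 8 libraries, with genotype means taken off. Among 12017 genes at 1 CPM or more, the closest were the transporter gene Abcc1 (r = 0.98, rho = 0.98), Myl9 (0.98, 0.93), B3galt4 (0.96, 0.98), the growth factor gene Fgf7 (0.96, 0.90), Zfp707 (0.95, 0.90) and Jph2 (0.95, 0.90). Myl9 was at 27.8, 41.0, 64.6 and 65.5 CPM in wild type and 24.5, 54.9, 44.8 and 30.1 CPM in knockout. The genes closest to Acta2 alone were Dpagt1, Prune2, Mapre3 and Traf3, with r from 0.95 to 0.97. In wild-type library 2 Prune2 had 31.0 CPM, with 4.97 to 8.68 CPM elsewhere. Without the 2 libraries farthest from the median of Acta2, the r of Prune2 was 0.91 and that of Dpagt1 0.58.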

How the data were processed

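The deposited files hold whole-number counts per gene symbol, 1 table per mouse, with no scaling visible in the values. Per the submitters' processing notes, the tools listed, with no stated order or role, were FastQC (0.11.2), STAR (2.4.0g1), featureCounts, Cufflinks and also edgeR, with the build mm10; the labels name no strand or multi-read setting. Exon positions were read from the annotation the authors deposited, whose start and end columns hold other values, not measurements. Genes were filtered with filterByExpr, scaled by TMM (factors 0.966 to 1.05) and compared with the quasi-likelihood F test of edgeR 4.0.16 in R 4.3.3, with robust dispersions, Benjamini-Hochberg adjustment over 14493 genes and a threshold of 0.05. The SE is the one the F statistic implies. Log2 CPM used a prior count of 2. The procedure was tested on simulated counts. The common biological coefficient of variation was 0.301. Each edgeR p-value sets the genotype difference against the spread between these mice, with dispersion estimates that share information across genes. No 2 libraries of a genotype agreed within sampling noise (smallest chi-square per degree of freedom 63.0).

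All 10 members are named. From each related list, up to 4 genes with the smallest p are named, and in the ligand, receptor and regulator lists any member may be. Abcc9, Vtn, Kcnj8, Heyl, Ano1, Actg2, Kcnmb1, Pcp4l1, Foxj1, Epcam, Tek, Tie1 and Acta1 were named after their values were seen. Likeness was ranked by Pearson's r over the 8 libraries, the 6 highest for the list and the 4 highest for Acta2. The members and lists were chosen with earlier results of these data known. Carmn, Muc16 and Dnah5 had no match and were not used here. Processing alternatives covered other scaling (median-ratio, total counts), a looser and a stricter low-count filter, DESeq2 1.42.0, voom in limma 3.58.1, non-robust dispersions, a replicate block, and left-out libraries. The targeted gene is not reported here.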

Additional observations from a re-analysis of the deposited data

Results flagged for a closer look

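Dixon's test was applied to 96 groups of 4 libraries and marked 1 of them; about 4.8 would be marked by chance. In wild-type mice the summed skeletal muscle genes, nearly all of it Acta1, stood at 6.34 (log2 CPM) in library 2, with the remaining 3 at 5.15 to 5.27. That library also had the highest Acta2.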

How the results depend on the processing

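None of the 10 members passed under any of the 17 alternatives, including DESeq2, which gave Acta2 an adjusted p of 0.438 and Mylk 0.762. The direction of 9 members held in all of them. Notch3 turned to 0.31 without wild-type library 3, 0.02 without wild-type library 4, 0.17 without knockout library 1, 0.04 without knockout library 2 and 0.42 with both libraries that hold epithelial genes left out; its lowest value was -0.49, without knockout library 3. The number of members below 0 was 8 or 9 of 10, and the median of the list lay between -0.64 and -0.26 with each library left out. Over all genes, the count called lower was 2 with all libraries and 0 with total counts, no low-count filter, limma voom, the pair of libraries left out, or each library left out (0 to 0). It stayed at 2 with median-ratio factors, the stricter filter and non-robust dispersions. DESeq2 called 8 genes higher and 9 lower. With the replicate block 0 genes were called lower, and no member passed. No pairing by replicate number was seen: the correlations of same-numbered deviations were 0.117, -0.015, -0.32 and -0.017, and 0 of 8 libraries correlated best with its own number. The labels do not say whether the numbers pair mice, and this check cannot exclude it. Of 238 counts for the related lists, 8 moved by over 1.5 times: pericyte genes below 0 (13) became 7 and Notch genes (8) became 4 without wild-type library 3, alone or with knockout library 2. Without knockout library 2 alone Notch genes became 5, and platelet-derived growth factor genes (2) became 1, as without both. Transforming growth factor beta genes (8) became 5 without wild-type library 4. The cause of these changes was not tested. For all 10 members the longest transcript was as long as the merged exons, so using its length could not change their levels per kilobase.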

Other observations

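Acta1, skeletal muscle actin, was at 34.1, 78.9, 30.6 and 36.5 CPM in wild-type mice 1 to 4 and at 14.5, 42.8, 17.5 and 10.8 CPM in knockout mice 1 to 4. Its difference was -1.07 on the log2 scale (SE 0.47, edgeR adjusted p = 1), close to that of Acta2, but its highest knockout library was library 2. All 10 macrophage genes were above 0 (median log2 fold change 0.57) and all 7 mesothelial genes below 0 (median -0.34), none past the threshold. Of all tested genes 46.9% were below 0, and genes of a list are not independent observations.

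The genes closest to Rgs5 with Notch3, ranked after values were seen, were Abcc9, Vamp1, Car7, Abca8a, Vtn and Dgke, with r from 0.98 to 0.99. Abca8a, a lipid transporter gene, was at 41.4, 23.6, 64.5 and 52.8 CPM in wild type and 28.2, 41.9, 75.9 and 53.5 CPM in knockout, lowest in wild-type mouse 2 and knockout mouse 1 and highest in wild-type mouse 3 and knockout mouse 3, as for Rgs5.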
